A study of Mus musculus with 4 samples.

Results

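The immediate early transcription factors of the AP-1, EGR and KLF families were followed here in inflamed mouse peritoneal cells with and without the transcription factor C/EBPε, which acts in the late maturation of granulocytes. The members were 10 genes (Fos, Fosb, Fosl2, Jun, Junb, Jund, Egr1, Egr2, Klf2 and Klf4), taken up wherever a probe set of either array type carried that gene's symbol and no other. Of 13069 probe sets that are not controls, 11 qualified, and they stood for 9 of the 10 genes, out of 6137 genes named on the arrays. Fosb was not analysed here. Klf2, Klf4, Junb and Egr1 lay on array type A and Fos, Fosl2, Jun, Jund and Egr2 on array type B.

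Immediate early genes are switched on within minutes of a stimulus from factors that are already in the cell. Growth factor, cytokine or stress signals reach them through MAP kinases, which act on serum response factor and its ternary complex partners at CArG boxes, and on CREB and ATF factors at cyclic AMP response elements. Fos and Jun proteins pair through leucine zippers to form AP-1, EGR proteins bind GC-rich sites through zinc fingers, and KLF2 and KLF4 are zinc finger factors known for restraint of inflammatory activation and for monocyte differentiation. KLF2, KLF4 and JUN are also known to be induced through MEK5, its kinase target ERK5 and the MEF2 factors.

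Total RNA came from peritoneal exudate cells of C/EBPε +/+ (wild-type) and -/- (deficient) mice of mixed 129/SvEv x NIH Black Swiss background, aged 6 to 8 weeks. All mice had received 2 ml of 4% thioglycollate broth, a sterile irritant, and cells were lavaged 24 h later. Per the labels 4 mice of each genotype were used, the deficiency was not limited to a named tissue, and differential counts gave neutrophils about 60%, monocytes about 30% and lymphocytes 7 to 10% of the cells, whichever the genotype. Whether cells of the mice were pooled for an array is not told by the labels, whose text breaks off there. Each genotype had 1 array of each of the 2 array types, which carry different probe sets and are not replicates. No test was possible, so each difference compares 2 RNA preparations and not 2 genotypes with their spread between mice. On type B the deficient array is identified as deficient by its title alone, since its RNA source label leaves the genotype out. Cebpe was not analysed here, so the genotype labels were not checked against the targeted gene.

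Fosl2 and Egr2 were the members that differed most. Both were about 6 times above the signal floor in wild-type cells and below it in deficient cells. The floor is the median reading of an array type, 1036.5 on A and 690.17 on B, below which no ratio was formed. A gene above it in 1 genotype only has a bound, the fold difference with the other reading set to the floor. Such a bound is a least difference for this floor only. Klf2 went the other way, with 2.03-fold higher signal in deficient cells. Fos, Junb, Jund and Egr1 read lower in deficient cells and Klf4 and Jun higher, all by less than 2-fold, and 1 of the 2 Jund probe sets turned sign with bacterial-control scaling. Of the 9 genes, 2 were lower and 1 higher by 2-fold or more. Over all 3749 genes with signal above the floor on at least 1 array, 4.56% were lower and 4.16% higher by that much. By sign alone, 6 of the 9 members were below 0 and 3 above, and over all genes 49.4% were below 0. Counted by probe set, a difference of at least 2-fold was upward for 3.3% and downward for 4.05% of the 3580 with signal on type A, and upward for 6.53% and downward for 4.99% of the 3586 on type B. In such bulk RNA, fewer cells of a type and less RNA per cell cannot be told apart.

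**Figure D1:**
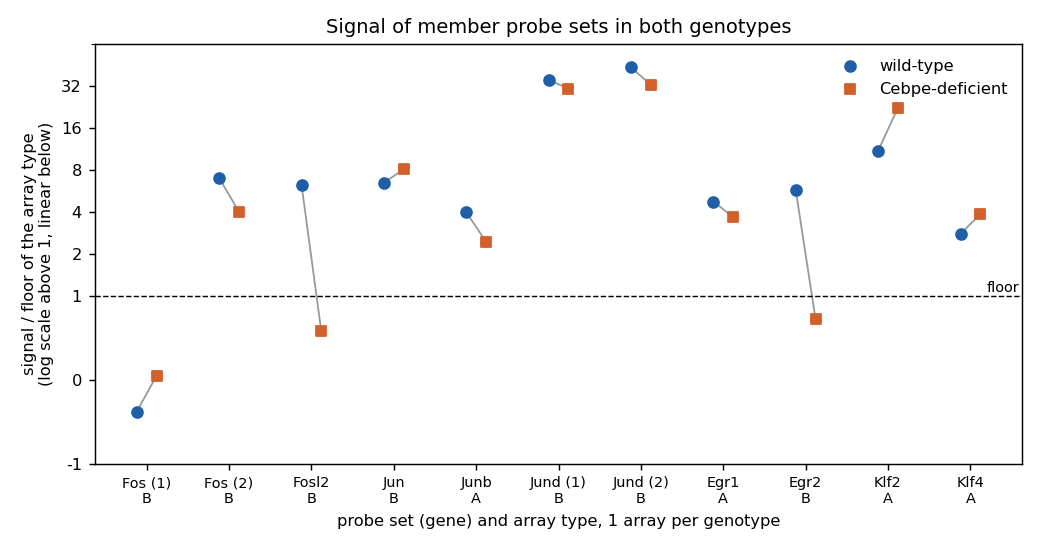
Signal of the 11 member probe sets divided by the floor of their array type (vertical axis, logarithmic above 1 and linear below it), with wild-type cells as blue circles and Cebpe-deficient cells as orange squares, 1 array each. Fosl2 and Egr2 cross from about 6 times the floor to below it, Klf2 moves from 11.0 to 22.3 times the floor, and Fos (1) is below the floor in both genotypes.

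Promoter sequences are shown for 5 members. Fosl2 and Egr2 had the largest decreases and Fos had the lowest measured ratio. Klf2 and Jun, 2 of the 3 members with higher signal, were chosen for that and for their MEF2 boxes together. Klf4, also with higher signal, held no MEF2 box. Whether signal and motif are linked was not tested. Each is a RefSeq window of build GRCm38.p6 that runs from 250 bases before to 50 bases after an annotated start, 5′ to 3′ on the gene's strand. The windows are Fosl2 at chr5:32136222-32136521 (plus strand), Egr2 at chr10:67537619-67537918 (plus strand, the first of 3 annotated starts, of 5, whose windows tied for the most matches), Fos at chr12:85473640-85473939 (plus strand), Klf2 at chr8:72318812-72319111 (plus strand) and Jun at chr4:95052173-95052472 (minus strand). Capitals mark every match, on either strand, to the motifs that were searched: the CArG box, the MEF2 box and the NF-κB site by their usual consensus, the cyclic AMP response element TGACGTCA and its half-site TGACG, the AP-1 site TGANTCA, the EGR site GCGNGGGCG, the TATA box TATAAA and the C/EBP site TTNCGNAA.
Fosl2: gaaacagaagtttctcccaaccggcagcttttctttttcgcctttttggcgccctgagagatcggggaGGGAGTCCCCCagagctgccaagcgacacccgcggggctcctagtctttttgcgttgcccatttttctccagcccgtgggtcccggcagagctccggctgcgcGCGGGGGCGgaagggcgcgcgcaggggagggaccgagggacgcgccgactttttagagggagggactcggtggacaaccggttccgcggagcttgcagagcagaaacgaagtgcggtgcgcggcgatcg
Egr2: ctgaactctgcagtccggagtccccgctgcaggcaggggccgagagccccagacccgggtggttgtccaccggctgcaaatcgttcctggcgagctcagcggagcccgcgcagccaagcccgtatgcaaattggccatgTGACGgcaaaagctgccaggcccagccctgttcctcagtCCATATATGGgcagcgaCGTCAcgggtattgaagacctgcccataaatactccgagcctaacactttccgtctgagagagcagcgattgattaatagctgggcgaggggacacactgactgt
Fos: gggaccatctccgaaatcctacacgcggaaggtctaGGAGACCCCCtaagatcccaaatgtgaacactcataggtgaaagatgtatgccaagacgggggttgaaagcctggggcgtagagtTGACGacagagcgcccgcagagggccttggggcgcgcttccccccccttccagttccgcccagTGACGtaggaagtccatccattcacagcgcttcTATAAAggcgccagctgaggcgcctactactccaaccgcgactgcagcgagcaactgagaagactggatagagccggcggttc
Klf2: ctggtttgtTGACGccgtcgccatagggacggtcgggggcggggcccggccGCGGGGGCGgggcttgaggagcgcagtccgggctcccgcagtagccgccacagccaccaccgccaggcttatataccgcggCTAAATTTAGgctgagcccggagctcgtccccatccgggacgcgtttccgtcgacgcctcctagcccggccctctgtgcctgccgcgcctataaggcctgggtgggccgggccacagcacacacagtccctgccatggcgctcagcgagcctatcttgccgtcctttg
Jun: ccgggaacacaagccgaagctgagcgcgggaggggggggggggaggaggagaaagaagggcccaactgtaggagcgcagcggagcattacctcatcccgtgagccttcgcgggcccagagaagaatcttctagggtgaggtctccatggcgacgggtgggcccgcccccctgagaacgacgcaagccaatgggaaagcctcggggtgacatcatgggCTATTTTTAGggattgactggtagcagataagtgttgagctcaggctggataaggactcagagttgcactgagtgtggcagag

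A CArG box lay 72 bases before the Egr2 start shown, between half-sites of the cyclic AMP response element at 111 and 55 bases before it. CArG boxes were found in 1.63% of all 32851 RefSeq windows. In 4 of the 5 Egr2 windows a CArG box was present. Those that begin at 67537619, 67537620 and 67537680 overlap and hold the same CArG box, CCATATATGG. The window that begins at 67537316 held another, CCTTTTTTGG. It also held TTCCGGAA, the only match among the 9 members searched to the loose C/EBP pattern TTNCGNAA (2.47% of all windows). Egr1 was not searched for any motif. MEF2 boxes lay 118 bases before the Klf2 start and 33 bases before the Jun start, against 3.19% of all windows. Klf4, Fos, Fosl2, Junb, Jund and Egr2 had no MEF2 box in these 300 bases. Fos held a TATA box 33 bases before its start and half-sites of the cyclic AMP response element at 129 and 66 bases. Fosl2 held an EGR site 79 bases before its start (EGR sites occur in 5.55% of windows) and overlapping NF-κB matches at 182 and 181 bases (8.46% of windows). EGR sites were also present upstream of Klf2 (199 bases) and Klf4 (211 and 194 bases), and upstream of Fosb (50 bases), which was not measured. The half-site, found in 20.8% of windows, was present in Fos, Fosb, Junb, Egr2, Klf2 and Klf4. No exact match to the full cyclic AMP response element or the AP-1 site was found in the windows of the 9 members searched. Over all windows the shares were 1.79% and 7.81%. Near matches, such as tgacatca in the Jun window, were not counted. Jund had no match at all. A match describes the letters of a short window and is no evidence of binding.

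**Figure D2:**
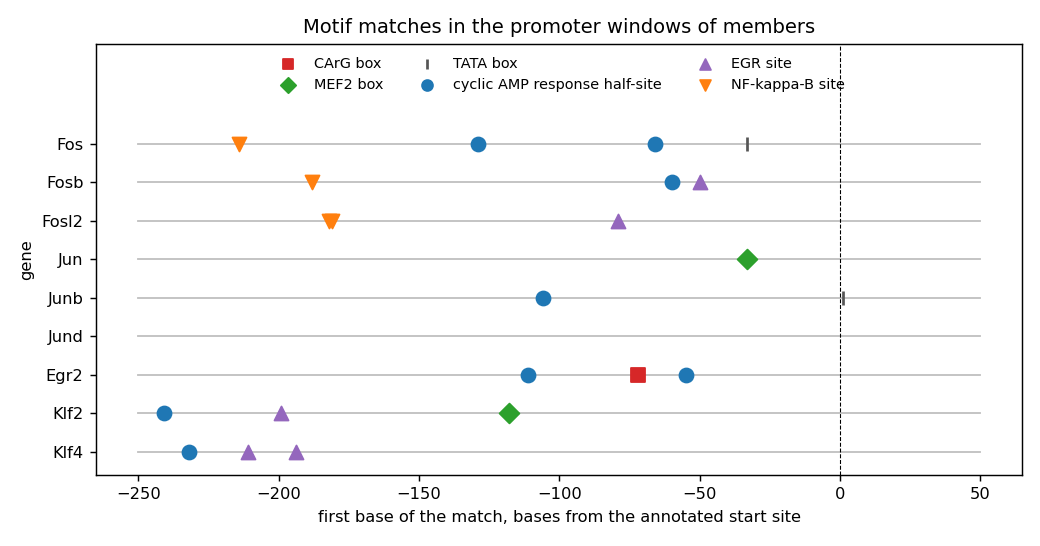
Position of each motif match in the 300-base promoter windows of 9 members, all but Egr1, as bases from the annotated start site (horizontal axis, dashed line at the start). The CArG box is in the Egr2 window, the MEF2 boxes are in those of Klf2 and Jun, and the Jund window has no match.

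Among the Fos family, Fosl2 encodes FRA-2, a more slowly induced Fos protein without the strong activation domain of c-Fos. Its probe set read 4296 in wild-type cells and 399 without C/EBPε. The deficient reading was 0.58 times the floor, so that the difference is a bound: Fosl2 was at least 6.23-fold lower. That bound was the 6th lowest of 632 on array type B, where 248 bounds were below 0. The wild-type reading was 6.23 times the floor.

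Fos, which encodes c-Fos, the short-lived partner of Jun proteins, had a signal of 4824 in the wild-type and 2771 in the deficient sample by its measured probe set. The log2 ratio was -0.80, a 1.74-fold lower signal and the 189th lowest of the 2954 ratios on type B. Where a gene had several measured probe sets, their ratios differed with an SD of 0.38 log2 units (424 genes), taken as the measurement error of 1 ratio. Among probe sets at least 3 times above the floor in both genotypes the SD was 0.28 (215 genes), and among the dimmer ones 0.47 (94 genes). Every count of error SDs given here uses 0.38. The measurement error holds no spread between mice, and no error of preparation or hybridization that all probe sets of an array share. The Fos difference was 2.14 such SDs. A second Fos probe set read -262 and 32, below the floor in both genotypes, and gave no ratio.

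The Jun family had log2 ratios of both signs, all within 2 error SDs. Junb, whose protein often opposes c-Jun, had a signal of 4116 in the wild-type and 2533 in the deficient sample, with a log2 ratio of -0.70. Jun, the gene of c-Jun, went from 4454 in the wild-type to 5582 in the deficient sample, with a log2 ratio of 0.32. Jund, the constitutively expressed family member, was measured by 2 probe sets. They read 24406 and 21106 by the first and 29946 and 22564 by the second, with log2 ratios of -0.21 and -0.41. Junb was at 1.87 error SDs and lay below 3 times the floor in deficient cells, where the error SD was 0.47 (94 genes). Jun and Jund were at no more than 1.09 error SDs. Both Jund probe sets carry the suffix that Affymetrix used for probes shared within a sequence family, so that their reading is uncertain as to which gene it counts.

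Among the EGR factors, Egr2 (Krox-20), a zinc finger factor of macrophage and lymphocyte activation, stood at 3950 in the wild-type and 499 in the deficient sample. It was at least 5.73-fold lower, the 9th lowest of the 632 bounds on type B. Egr1, the prototype of the family, read 4905 and 3807. Its log2 ratio of -0.37 was 0.98 error SDs, and both EGR genes were thus below 0. Whether Egr2 differed from Egr1 could not be tested with 1 array each.

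Both KLF members had higher signal in deficient cells. Klf2 stood at 11373 in the wild-type and 23071 in the deficient sample, a log2 ratio of 1.02 and 2.71 error SDs. Its ratio ranked 71st highest of 2949 on array type A. Klf4 read 2887 and 3978, with a log2 ratio of 0.46, or 1.23 error SDs. Its wild-type reading was 2.79 times the floor, and below 3 times the floor the error SD was 0.47. Klf2 thus had the only measured ratio among the members past 2-fold, and it lay just past it.

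**Figure D3:**
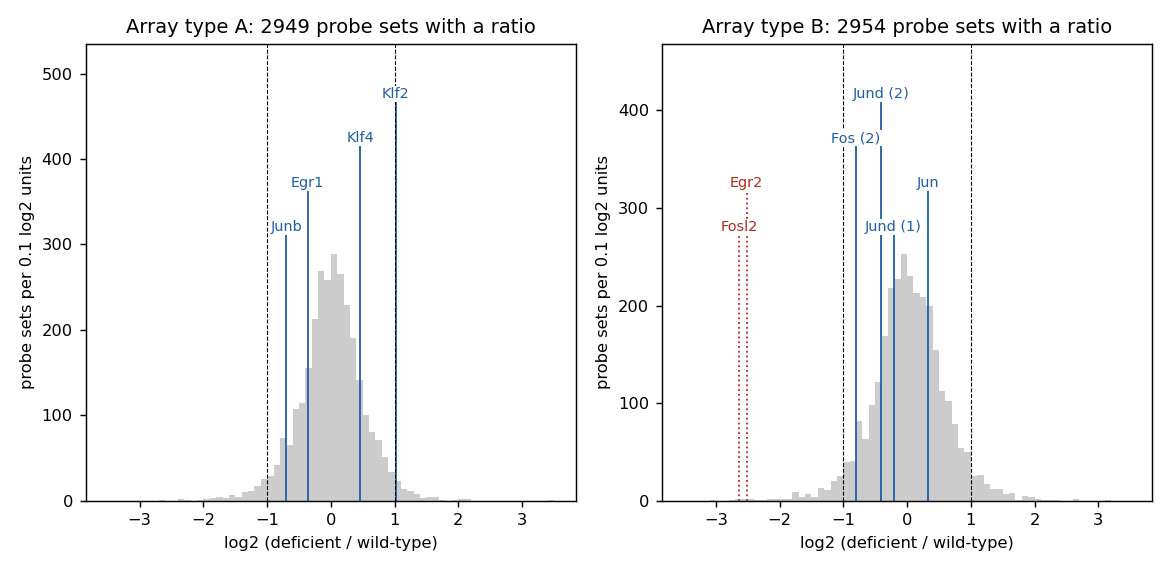
Distribution of log2 ratios, deficient over wild-type, over all probe sets above the floor on both arrays (grey, 2949 on type A and 2954 on type B), with members as vertical lines (solid blue for ratios, dotted red for bounds) and dashed lines at 2-fold. Fosl2 and Egr2 lie in the far lower tail of type B at -2.64 and -2.52, and Klf2 lies at 1.02 on type A.

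Of the 10 member probe sets with a value, 9 kept their sign under all 6 scalings and the first Jund probe set did not. When the summed signal of the bacterial control transcripts was made equal instead, the median over all ratios went to 0.21 on type A and 0.36 on type B, from 0.02 on both. Under it the first Jund probe set turned to 0.14, while Jund by the second stood at -0.06, Egr1 at -0.16, Fos at -0.45 and Junb at -0.50. Relative to the median of all probe sets under that scaling, the first Jund probe set was at -0.22. Over the 6 scalings Klf2 ranged from 0.999, just short of 2-fold, with loess to 1.22 with bacterial controls, Klf4 from 0.46 to 0.67 and Jun from 0.15 to 0.67. The bounds of Fosl2 and Egr2 moved with the floor. At the 30th percentile both became ratios of -3.43 and -2.99, and at the 70th percentile the bounds were -1.07 and -0.95, the second under 2-fold.

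**Figure D4:**
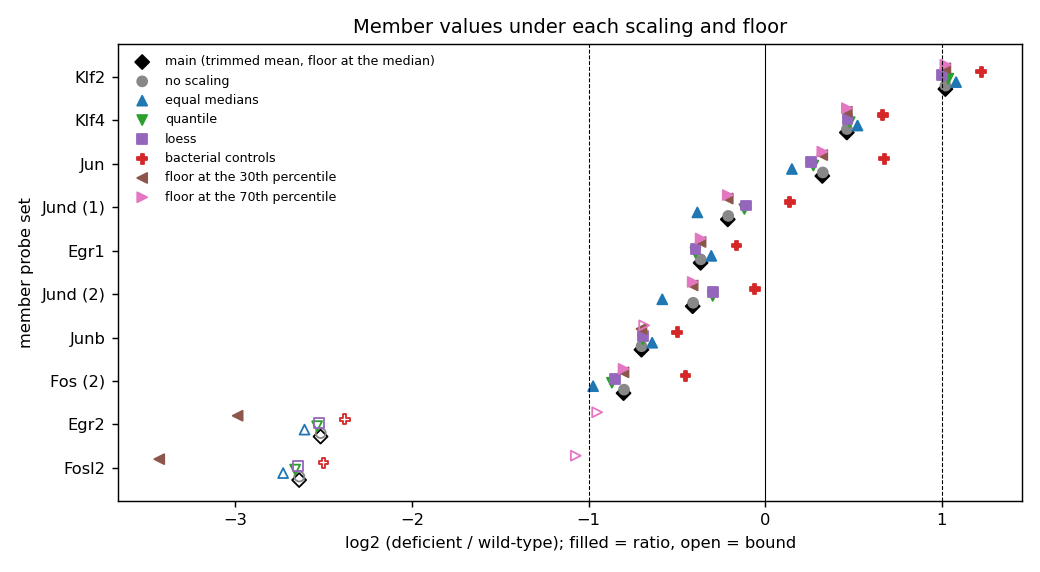
Log2 value of each measured member probe set, deficient over wild-type (horizontal axis), under 6 scalings and 3 floors, with filled symbols for ratios and open ones for bounds. Fosl2 and Egr2 stay at or below -0.95 and Klf2 and Klf4 at or above 0.46 in all of them, and Jund (1) crosses 0 with bacterial controls.

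Genes of the same pathways were read from lists whose results were partly known beforehand, and they are described by counts and medians only. The median of all 3132 genes with a ratio was 0.01. Of 16 other immediate early genes with a ratio, 12 were below 0 and 4 above (median -0.39). Rhob, a small GTPase, Bcl3, an atypical IκB protein, and Plk2, a polo-like kinase, were lower by 2-fold or more, at -1.36, -1.28 and -1.19. The orphan nuclear receptor gene Nr4a1 was higher, from 5083 to 11673, a log2 ratio of 1.20. The 3 lower genes became 1 with bacterial controls, 1 without suffixed probe sets and 0 at 3-fold, and Nr4a1 was no longer counted in the last 2 of these. Of 10 genes known to restrain immediate early induction, 8 were below 0 (median -0.39) and 0 passed 2-fold. The lowest was Dusp1, a MAP kinase phosphatase, at -0.92, and the highest Zfp36l2, an mRNA decay factor, at 0.88. Btg2, Dusp1, Ier3, Nfkbia, Socs3 and Zfp36 are also among the other immediate early genes above, so these lists are not separate results.

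Among upstream factors, 4 of the 8 listed genes of the ternary complex and serum response group had a ratio, and all 4 were above 0 (median 0.80). The gene of serum response factor itself was not among the 4. The highest was Mrtfa, a co-activator of serum response factor, at 1.22, and Elk4 was at 0.01. Without suffixed probe sets that median was 0.01, from Elk4 alone, and the count past 2-fold was 0. It was also 0 at 3-fold, and 3 with bacterial controls. Of 10 MAP kinase cascade genes with a ratio, 6 were above 0 (median 0.10), and Mapk7, the gene of ERK5, was the 1 past 2-fold by the probe set used. A second measured probe set of Mapkapk2, a kinase downstream of p38, was at 1.28, while the one used was at 0.43. Mapk7 went from 1610 in the wild-type to 5983 in the deficient sample, 3.71-fold higher. Its probe set is a suffixed one, and without these the list had 0 genes past 2-fold. With bacterial controls it had 2. Of the MEF2 genes, a group chosen after values were seen, Mef2c read 819 and 2165 and was at least 2.09-fold higher. Mef2a had a bound of 0.58 and Mef2d a ratio of 0.44. Mef2b had negative readings in both genotypes and so no log2 value. The count of MEF2 genes past 2-fold fell to 0 at 3-fold, when suffixed probe sets were left out, and at the higher floor of the 70th percentile.

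Other bZIP partners had a median of 0.26 over 8 genes, 5 of them above 0. Creb1, which binds cyclic AMP response elements, was at least 2.76-fold higher. At 3-fold, at the higher floor of the 70th percentile, or once suffixed probe sets were left out, 0 of these partners passed. Atf3, itself an immediate early gene, was at 0.09. Batf3 had probe sets at 0.58 and -0.23. Among the other family genes, Klf3 was highest at 0.86 and Klf1 lowest at -0.43, with Klf10 at 0.43, and Fosl1 was below the floor in both genotypes. Textbook AP-1 targets were below 0 in 11 of 13 cases (median -0.40), 4 of them by 2-fold or more: Timp1 at -2.63, Ccl2 at -2.33, Il1b at -1.11 and Ccnd1 at -1.01. That count was 2 with bacterial controls and at 3-fold. Without suffixed probe sets it was 0, and the median was 0.15. Textbook EGR targets had a median of 0.19 over 6 genes and 0 past 2-fold, from Tnf at -0.39 to Ptpn1 at 0.59, and Tnf read 0.15 by its other measured probe set. The 5 measured textbook targets of KLF2 and KLF4 were all below 0 (median -0.18, and 0.09 with bacterial controls), with Arg1 at -2.66 and Cd14 at -1.03 past 2-fold. Quantile, loess and bacterial-control scaling and 3-fold left 1 past it, and no suffixed probe sets left 0.

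**Figure D5:**
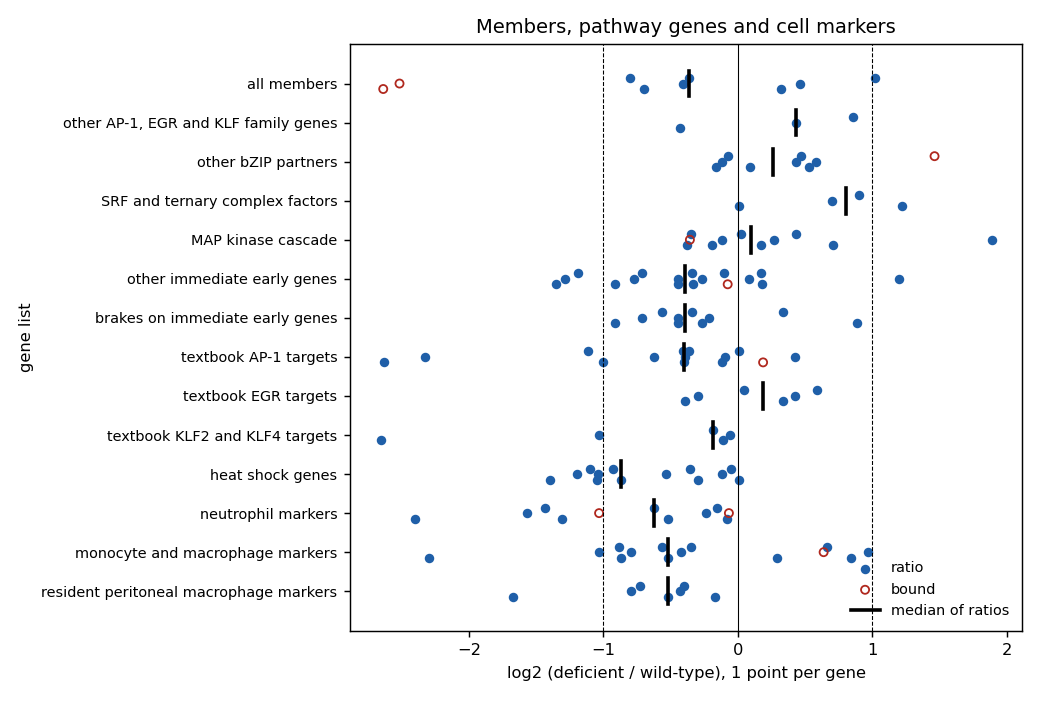
Log2 values, deficient over wild-type, of single genes (1 point each) in the member set, in pathway lists and in marker lists, with blue points for ratios, open red circles for bounds and a black bar at the median of the ratios. The median is -0.37 for the members, 0.80 for the ternary complex group and -0.87 for heat shock genes.

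Markers of stress and of cell types also differed, and their part in the member differences was not tested. Heat shock genes, which also respond to handling, were below 0 in 12 of 13 cases (median -0.87), 5 of them by 2-fold or more, namely Bag3 at -1.40, Hsp90aa1 at -1.19, Hspe1 at -1.10, Hspb1 at -1.05 and Hsph1 at -1.04. The count was 1 with bacterial controls, 1 at the higher floor of the 70th percentile (median -0.36), and 0 at 3-fold or without suffixed probe sets. The summed signal of the heat shock list went from 41877 to 30210 on type A and from 113773 to 74917 on type B. Sums here add the unscaled readings of every list gene with a probe set, also those below the floor or negative. Neutrophil markers with a ratio were below 0 in 9 of 9 cases (median -0.62). Lower by less than 2-fold were Mmp9 at -0.62, Lcn2 at -0.52, S100a9 at -0.24, Itgb2 at -0.15 and S100a8 at -0.08. Lower by 2-fold or more were 5 genes of the list: Il1r2 at -2.40, Ngp at -1.57, Ly6g at -1.44, Csf3r at -1.31 and Cxcr2 by a bound of -1.03. That count was 2 at the higher floor, and 1 without suffixed probe sets or at 3-fold. The sum of the whole neutrophil list went from 136417 to 105238 on A and from 128162 to 98800 on B. Camp, which is included, did not reach the floor on either array. Monocyte and macrophage markers were below 0 in 9 of 13 cases (median -0.52), with Mrc1 at -2.30 and Cd14 at -1.03 past 2-fold. Ccr2 at 0.97, Csf1r at 0.84, Mpeg1 at 0.66 and Cd68 at 0.29 were above 0. The lower count was 1 with quantile, loess or bacterial-control scaling or at 3-fold, and 0 without suffixed probe sets. The count higher by 2-fold or more was 0. It became 1 with median scaling or the floor at the 30th percentile, and 3 with bacterial controls. Sums were 136484 and 132386 on A and 317571 and 263533 on B. The 7 resident macrophage markers were all below 0 (median -0.52), with Serpinb2 at -1.68 past 2-fold and sums of 19910 and 12908 on A and 152281 and 115031 on B.

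Some markers of the labelled cell types were bright. S100a8 of the neutrophil list read 66423 and 62899, and the lysozyme gene Lyz2 of phagocytes read 63063 and 46948. Some others of the neutrophil list were dim: Ly6g read 3921 and 1449, Cxcr2 2120 and 571, and Ltf 722 and 210. Markers of other cells had medians of -0.11 for B cells (5 ratios), -0.36 for mast cells and eosinophils (4 ratios), -0.20 for erythroid cells (4 ratios) and -0.57 for mesothelial cells and fibroblasts (5 ratios). Past 2-fold among these were Ccr3 at -1.92, the globin gene Hbb-b2 at -1.62, Alas2 by a bound of -2.79, Col3a1 at -1.70 and Sparc at -1.51, all lower. Without suffixed probe sets only Ccr3 stayed past 2-fold, and at the higher floor it was not. The B cell and erythroid medians turned above 0 with bacterial controls, to 0.09 and 0.08. T and NK cell markers had 1 ratio, and Cd3d, Cd3g, Cd4, Cd8a, Klrb1c and Thy1 were below the floor in both genotypes. The ratio of 3′ to 5′ control signal was 0.76 to 0.84 for Gapdh and 0.82 to 0.89 for β-actin over the 4 arrays. Klf1, named above, is also an erythroid gene. Cd44, Tnf, Nab2, Cd14, Mmp9, Hmox1 and Adgre1 were likewise counted in more than 1 list.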

How the data were processed

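Members and gene lists were chosen with earlier results of these data known, so no list is independent support. Groups came from the sample titles. The authors deposited linear array intensities, 1 whole number for each probe set on each array, of which 20.6% to 29.3% were below 0. How the authors corrected background and scaled the arrays was not given in the sources used here. Genes were named by the platform annotation where it gave a single symbol, which left 224 probe sets with several symbols and 5303 without one unnamed.

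The 2 arrays of a type were brought to equal trimmed means over probe sets other than controls, 2% being trimmed at each end (factors 0.999 to 1.001). A signal floor was set at the median of both scaled arrays, 1036.5 on type A and 690.17 on type B. Where both readings exceeded it, the log2 of deficient over wild-type was computed here from the deposited intensities. Where only 1 did, the other was set to the floor and the result is called a bound. Where neither did, no value was given. Of several measured probe sets of a gene, the one brightest against the floor was used. The number of arrays limits the precision: since nothing was replicated, no test was made and no p-value is given. The measurement error is the pooled SD of log2 ratios over repeat probe sets of 424 genes.

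Named beside the members were list genes past 2-fold (where more than 6 were, the 3 highest and 3 lowest; where 0 were, the highest and lowest), and a few others chosen after their values were seen: Elk4, Atf3, Mapkapk2, the MEF2 genes, Batf3, Klf10, Fosl1, Camp, S100a8 and Lyz2. The alternatives tried were raw values, median, quantile, loess (span 0.3) and bacterial-control scaling, floors at the 30th and 70th percentile, 3-fold in place of 2-fold, the mean over probe sets, and no suffixed probe sets. Single array types and the MEF2 genes were alternatives chosen after seeing the data. Simulated arrays with known folds were used to test the procedure. Promoter windows came from RefSeq on GRCm38.p6 (32851 windows), and 9 of the 10 members, all but Egr1, had a window that was used. Python 3.11.15, numpy 2.4.6, pandas 2.3.3, statsmodels 0.14.6 and matplotlib 3.10.9 were used.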

Additional observations from a re-analysis of the deposited data

How the results depend on the processing

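No paired analysis was possible because each genotype had 1 array per array type. Over the alternatives run, the member counts and the member median (2 lower and 1 higher by 2-fold or more, 6 below 0, median -0.37) moved in 10 of 45 cases, a count being taken as moved past 1.5 times and a median past 0.38, the error SD. Within that tolerance the median came near 0, at -0.06 with bacterial controls and -0.02 at the higher floor (70th percentile). The count of higher members was 0 with loess, at 3-fold and on array type B alone. The count of lower members was 1 at the higher floor and 0 on type A alone, where 2 members were below 0 and the median was 0.048. Of the 11 member probe sets 9 carry a suffix for shared probes, and without these Fosl2 alone still had a value, so that 1 member was lower, 0 were higher and 1 was below 0. No member past 2-fold changed sign under any alternative. Signal over background limits Fosl2 and Egr2: their deficient readings were below the floor, and the size of the difference is set by where the floor is put.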
